A study of Mus musculus with 5 samples.

Results

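The 9 genes described here belong to the cell's filament systems and are followed across the nuclei of mouse kidneys before and after ischemia-reperfusion injury (IRI): the thymosins *Tmsb10* and *Tmsb4x*, the cytoplasmic actins *Actb* and *Actg1*, the intermediate filament gene *Vim*, and the simple-epithelium keratins *Krt7*, *Krt8*, *Krt18* and *Krt19*. These members, of 27998 genes listed, were selected by gene symbol, and each matched 1 row in all 5 libraries. They were chosen with earlier results of these data known, so their levels are given as a description and carry no test. Nuclei were isolated from kidneys of male Six2-TGC; Rosa26rtTA; pTRE-H2BeGFP mice aged 10 to 12 weeks and fed doxycycline. Six2, whose regulatory sequence drives the TGC transgene, is active in nephron progenitors, so the histone-GFP fusion reports descendants of these cells. Nuclei were sorted by DAPI and then by GFP, and droplet libraries (10x, v2) of their polyadenylated RNA were sequenced.

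The groups were GFP-positive nuclei taken 64 h, 96 h or 28 d following a clamp of both renal pedicles, GFP-positive nuclei of uninjured kidneys, and GFP-negative nuclei of uninjured kidneys. All groups share the 3 transgenes and the doxycycline diet. Each group was 1 library, so there was no replicate, no test between conditions was possible, and a difference below is a difference between libraries. The 2 uninjured libraries carry the same serum values and are not treated as separate animals. After filtering, 16359 of 16666 barcodes were kept, with library totals between 1856284 UMIs (96 h; 1922002 before filtering) and 7153971 UMIs (GFP-positive, no injury). Median UMIs per kept barcode were lowest at 96 h (507) and highest in uninjured GFP-positive nuclei (1793.5), and pairs of libraries shared 9 to 20 barcode sequences. Levels are counts per 1e6 (CPM) of the summed UMIs of a cell class in a library, and intervals are exact 95% intervals that cover counting error only.

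Actin is the protein of the microfilaments, and it cycles between single molecules and polymer. The beta-thymosins bind single actin molecules and hold them back from polymerising, so they set the pool of unpolymerised actin. Vimentin forms the intermediate filaments of mesenchymal and endothelial cells, whereas epithelial cells build theirs from keratins in obligate pairs of a type II chain (*Krt7*, *Krt8*) with a type I chain (*Krt18*, *Krt19*). In the adult kidney the mature proximal tubule carries little of these keratins and the collecting duct carries more. Injured proximal tubule cells are known to lose their brush border, spread and switch on vimentin and keratins while they repair.

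The members are spread over the genome, with a single close pair (GRCm38, GENCODE M21). *Tmsb10* lies on chromosome 6 at 72957347 to 72958748 on the minus strand, and *Tmsb4x* on chromosome X at 167207093 to 167209315 on the minus strand. *Actb* lies on chromosome 5 at 142903115 to 142906754 and *Actg1* on chromosome 11 at 120345690 to 120348542, both on the minus strand. *Vim* is on chromosome 2 at 13573927 to 13582826 on the plus strand. *Krt7* (101411043 to 101430313, plus strand), *Krt8* (101996698 to 102004482, minus strand) and *Krt18* (102028180 to 102032027, plus strand) share chromosome 15, where *Krt8* and *Krt18*, which encode a keratin pair, are 23697 bases apart. *Krt19* is on chromosome 11 at 100140810 to 100148665 on the minus strand. Reads in introns were counted, and annotated exons cover 91.0% of the *Tmsb10* locus but 23.6% of *Krt19*, so levels are compared within a gene and not between genes. *Actg1*, *Krt7* and *Krt8* overlap other annotated genes, on the opposite strand for *Krt7* and *Krt8*, and none of these is among the genes listed. *Actg1* and *Krt8* have annotated pseudogene copies, whose reads cannot be told apart here. Pseudogene copies of the other members were not searched for.

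RefSeq promoter windows, from 250 bases before the start site to 50 after it, were matched for 7 of the 9 members, *Actb* and *Krt19* being the others. The motifs searched, on both strands, were the TATA box TATAAA, the CCAAT box, the GC box GGGCGG, the AP-1 motif TGANTCA, and the CArG box, which binds serum response factor, a regulator of actin genes. The GC box was found in 4 of the 7 members, against 35.7% of 32851 promoters, and the CArG box in *Actg1* alone, against 1.63% of promoters. The AP-1 letters were in none of the 7, against 7.81% of promoters. TATAAA was in *Vim* and *Krt8* (13.6% of promoters), and CCAAT in *Actg1* and *Vim* (37.4% of promoters). The 250 bases before the start site are shown for both thymosins, whose levels differed after injury, and for the actin gene with the CArG box. Capitals mark GC, CCAAT and CArG boxes, and CCGCCC is the GC box on the other strand (GRCm38.p6, minus strand, chr6:72958749-72958998, chrX:167209219-167209468 and chr11:120348496-120348745).
*Tmsb10*, first of 3 start sites: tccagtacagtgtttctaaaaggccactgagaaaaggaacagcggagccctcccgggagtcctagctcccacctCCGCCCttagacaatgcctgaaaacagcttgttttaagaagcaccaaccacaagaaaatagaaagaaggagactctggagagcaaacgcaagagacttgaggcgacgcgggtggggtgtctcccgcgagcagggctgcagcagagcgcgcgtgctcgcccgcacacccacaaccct
*Tmsb4x*: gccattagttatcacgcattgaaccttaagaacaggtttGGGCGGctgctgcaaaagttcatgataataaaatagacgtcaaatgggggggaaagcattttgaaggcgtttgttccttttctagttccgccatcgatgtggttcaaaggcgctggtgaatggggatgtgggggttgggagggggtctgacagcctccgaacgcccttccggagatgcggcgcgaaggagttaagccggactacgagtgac
*Actg1*: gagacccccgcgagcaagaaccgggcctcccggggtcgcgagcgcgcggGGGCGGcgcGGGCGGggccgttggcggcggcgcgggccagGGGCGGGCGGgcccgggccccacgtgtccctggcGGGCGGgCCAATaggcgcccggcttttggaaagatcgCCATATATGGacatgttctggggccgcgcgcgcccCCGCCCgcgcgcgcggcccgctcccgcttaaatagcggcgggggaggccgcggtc
The *Tmsb10* window holds a GC box that begins 176 bases before the start, and the *Tmsb4x* window holds one 211 bases before it. In *Actg1* the CArG box begins 90 bases before the start and a CCAAT box 120 bases before it. A match is a description of the sequence, and no binding was measured.

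Proximal tubule (PT)-like nuclei were the most numerous class in each GFP-positive library: 2273 of uninjured kidneys, then 1924, 2316 and 2163 at 64 h, 96 h and 28 d. After injury *Tmsb10*, *Actb*, *Actg1*, *Krt8* and *Krt18* were higher in these nuclei at 64 h and 96 h than without injury, and *Tmsb4x* was not. A member was counted as higher where CPM + 1 was at least 1.5 times that of the uninjured library. By that rule 6 of the 9 members were higher at 64 h, 7 of 9 at 96 h and 4 of 9 at 28 d, against 21.1%, 35.8% and 15% of all genes with a UMI. These counts include members whose ratio intervals span 1. They are *Vim* at 64 h and 96 h (8 and 3 UMIs, against 5) and *Krt18* at 28 d (5 UMIs, against 5). Genes counted as measured averaged at least 5 CPM over both sums. Of the members that did, 5 of 7 were higher at 64 h, where 22.5% of all measured genes were, 5 of 6 at 96 h (37.5% of measured genes) and 3 of 6 at 28 d (12.3%). The median measured gene was higher too, by a log2 fold of 0.17 at 64 h, 0.31 at 96 h and 0.075 at 28 d, against 1.98, 2.13 and 0.50 for the members that were measured. *Tmsb10* (4.145 CPM without injury) at each time and *Krt18* (1.04 CPM) at 64 h were measured only through the injured library. These counts and medians thus include members let in by the level being compared. The nuclear RNA *Malat1* made up 201200 CPM of PT-like UMIs without injury, 112300 CPM at 64 h, 139500 CPM at 96 h and 174400 CPM at 28 d. With *Malat1* taken out of the totals the same numbers of members were higher (6, 7 and 4).

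*Tmsb10* differed most among the members. In PT-like nuclei it stood at 4.145 CPM (20 UMIs) without injury, 62.2 CPM (180 UMIs) at 64 h, 123 CPM (160 UMIs) at 96 h and 13.4 CPM (32 UMIs) at 28 d. These levels were 15.01 times the uninjured one at 64 h (interval 9.44 to 25.2), 29.7 times at 96 h (18.6 to 49.9) and 3.22 times at 28 d (1.79 to 5.95). The ratio at 64 h and at 96 h was above that of 99.9% of the measured genes. *Tmsb4x*, its X-linked paralog with the same actin-binding role, took a different course, with 26.3 CPM (127 UMIs), 27.7 CPM (80 UMIs), 17.7 CPM (23 UMIs) and 14.6 CPM (35 UMIs) over the same order of libraries. Its ratio was 1.05 at 64 h (0.784 to 1.40), 0.672 at 96 h (0.411 to 1.05) and 0.555 at 28 d (0.370 to 0.813). Both thymosins were counted in the same nuclei and on the same total, and their intervals are apart at 64 h, 96 h and 28 d.

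Both cytoplasmic actins were higher after injury, *Actb* by the wider margin. *Actb*, which encodes beta-actin, had 48.9 CPM (236 UMIs) in the uninjured library, 283 CPM (818 UMIs) at 64 h, 427 CPM (555 UMIs) at 96 h and 122 CPM (292 UMIs) at 28 d. Its ratio to the uninjured library was 5.78 (5.00 to 6.71), 8.73 (7.48 to 10.2) and 2.49 (2.09 to 2.97) at the 3 times. *Actg1*, which encodes gamma-actin, was at 54.3 CPM (262 UMIs), 124.5 CPM (360 UMIs), 153 CPM (199 UMIs) and 68.9 CPM (165 UMIs), and its ratios were 2.29 (1.95 to 2.70), 2.82 (2.33 to 3.40) and 1.27 (1.04 to 1.55). The intervals of *Actb* lie above those of *Actg1* at all 3 times. At 28 d both actins and *Tmsb10* remained above the uninjured library by more than counting error, but *Actg1* did not reach the 1.5-fold rule.

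Among the keratins, the *Krt8* and *Krt18* pair was higher and *Krt19* was not. *Krt8* stood at 8.08 CPM (39 UMIs) without injury, 34.9 CPM (101 UMIs) at 64 h, 61.5 CPM (80 UMIs) at 96 h and 13.4 CPM (32 UMIs) at 28 d, with ratios of 4.32 (2.96 to 6.42), 7.61 (5.13 to 11.5) and 1.65 (1.00 to 2.71). Its type I partner *Krt18* had 5 UMIs without injury (1.04 CPM), 33 at 64 h (11.4 CPM), 11 at 96 h (8.46 CPM) and 5 at 28 d (2.09 CPM). The *Krt18* ratio was 11.01 at 64 h (4.27 to 36.1) and 8.17 at 96 h (2.62 to 29.98), and at 28 d it was 2.01 with an interval of 0.464 to 8.75 that spans equality. *Krt7*, a type II keratin of the collecting duct and urothelium, had 6.011 CPM in the uninjured library, 8.64 CPM at 64 h, 15.4 CPM at 96 h and 5.85 CPM at 28 d, and only its ratio at 96 h (2.56, 1.37 to 4.68) had an interval above 1. *Krt19*, a type I keratin of ductal epithelia, had 14 UMIs in the uninjured library, then 7, 3 and 1 at 64 h, 96 h and 28 d, and 9 of the 14 uninjured UMIs came from 78 nuclei of 1 PT-like cluster led by *Dpp4*. *Vim* was barely detected in PT-like nuclei, with 5 UMIs in the uninjured library, then 8, 3 and 3, and its ratio of 2.67 at 64 h has an interval of 0.770 to 10.4.

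**Figure D1:**
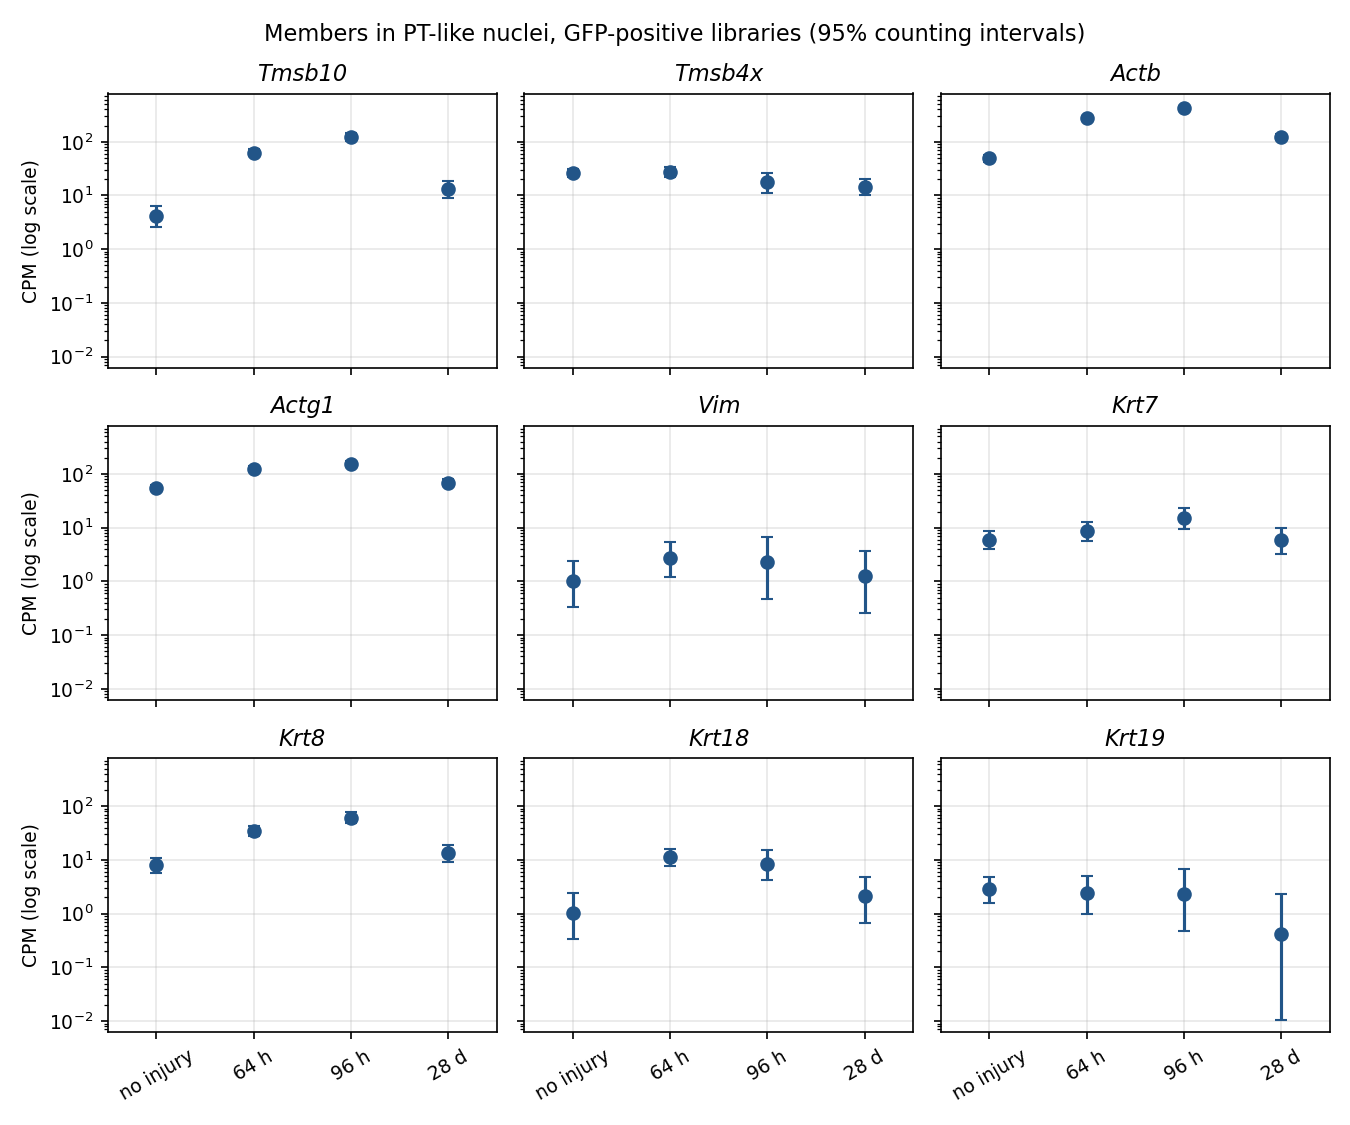
Level of each member in PT-like nuclei of the 4 GFP-positive libraries, in CPM on a log axis shared by the panels, with points for the library sums and bars for the exact 95% counting intervals. *Tmsb10*, *Actb*, *Actg1* and *Krt8* are highest at 96 h, and *Tmsb4x* is lower at 28 d (14.6 CPM) than without injury (26.3 CPM).

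**Figure D2:**
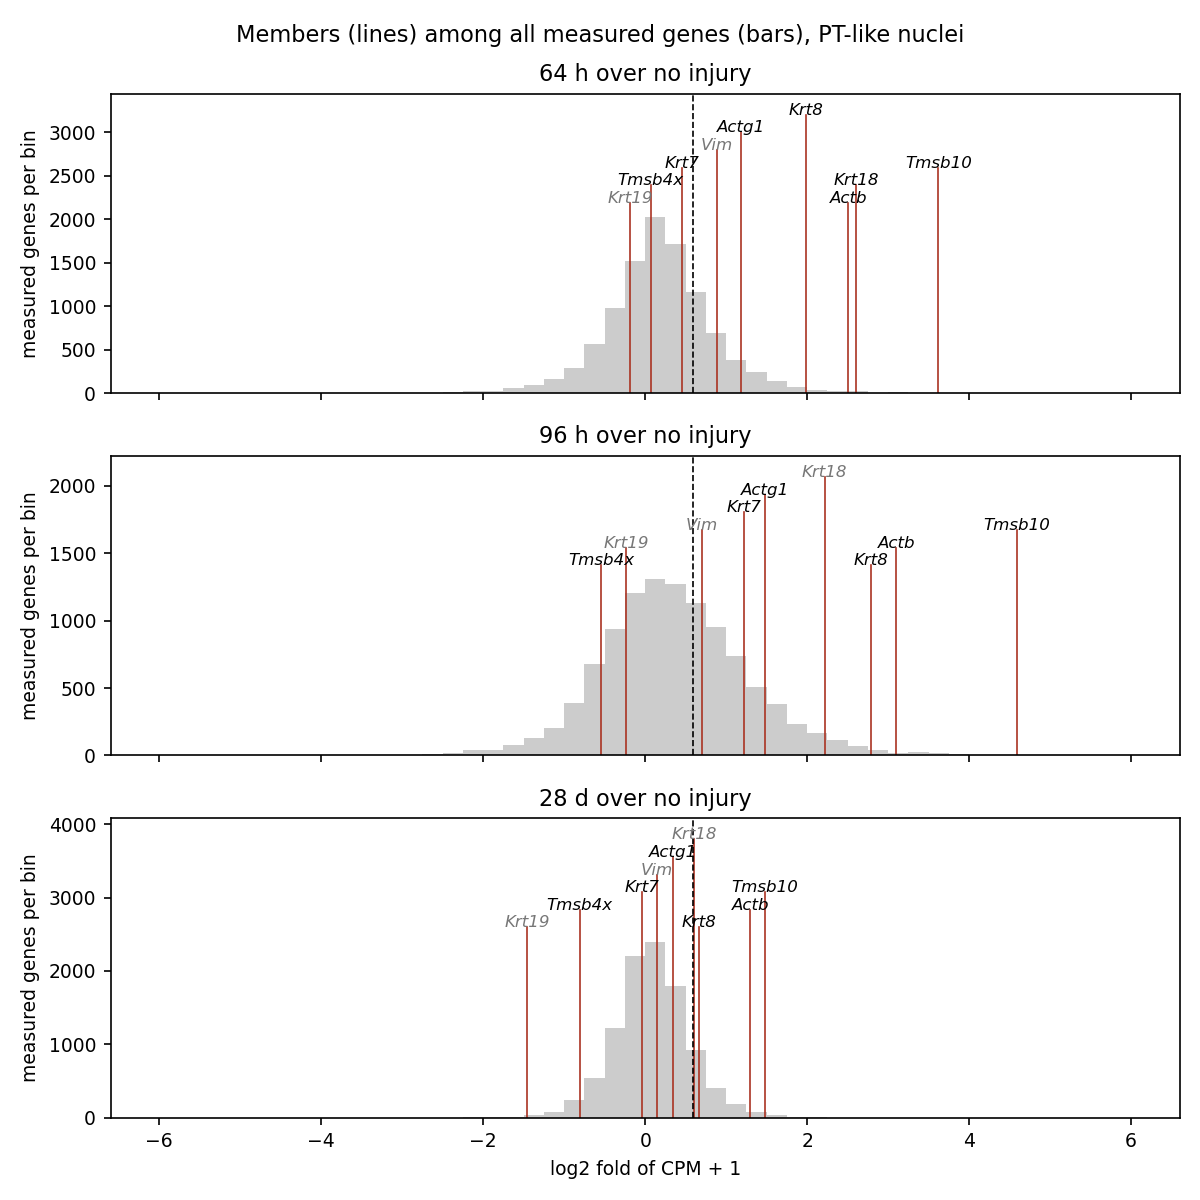
Distribution of the log2 fold of CPM + 1 over all measured genes in PT-like nuclei (grey bars, measured genes per bin), with the members as labelled lines and the 1.5-fold threshold dashed; members named in grey were too low to count as measured. *Tmsb10* sits at the far right of the distribution at 64 h, 96 h and 28 d, while *Tmsb4x* lies near or left of its middle.

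Levels were also set side by side among PT-like clusters, which were formed without the members or any keratin gene. A *Dpp4*-led cluster held most PT-like nuclei at 64 h (1186 of 1924), and an *Fgg*-led one, named for an acute-phase gene, held most at 96 h (1443 of 2316), so the 2 times are represented by different clusters. In the 3 largest PT-like clusters at 96 h, *Tmsb10* was at 172.6 CPM in the *Fgg*-led cluster (144.8 to 204.1), against 39.7 CPM in the *Cyp24a1*-led cluster (18.2 to 75.4; 490 nuclei) and 23.6 CPM in a *Gm26870*-led cluster (6.44 to 60.5; 242 nuclei). *Actb* was at 436.5 (391.6 to 485), 454 (371 to 551) and 443 CPM (349 to 555.5) in the same clusters, with overlapping intervals. *Krt8* was at 63.4, 53.0 and 53.2 CPM, with overlapping intervals. The smaller PT-like clusters at 96 h held 58 nuclei or fewer and 0 to 11 *Tmsb10* UMIs each, the 11 in the *Dpp4*-led cluster (195 CPM, 97.3 to 349). At 64 h *Tmsb10* was at 122 CPM in the *Fgg*-led cluster (66.7 to 204.8; 127 nuclei), 68.4 CPM in the *Dpp4*-led cluster (57.7 to 80.6) and 22.8 CPM in the *Cyp24a1*-led cluster (4.70 to 66.6; 154 nuclei).

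Counted nucleus by nucleus at an equal depth of 600 UMIs, few nuclei held a UMI of any member except *Actb*. The share of PT-like nuclei with an *Actb* UMI was 2.82% without injury (64 of 2273), 15.7% at 64 h (286 of 1827), 20.96% at 96 h (161 of 768) and 7.07% at 28 d (134 of 1896). For *Tmsb10* the shares were 0.176%, 3.06%, 4.95% and 0.686%. Nuclei below 600 UMIs were left out (0 of the uninjured library, then 97, 1548 and 267), and median UMIs before thinning ranged from 751 (96 h) to 1937 (no injury). Unthinned, the *Actb* shares were 9.77%, 31.4%, 19.99% and 12.2%, and those of *Tmsb10* 0.880%, 7.90%, 5.40% and 1.39%. For *Krt8* the thinned share was 0.440% without injury and 2.02% at 64 h. In endothelium-like nuclei of the same sort, which should lack this keratin, 1 of 24 nuclei held a *Krt8* UMI at 64 h (4.17%, median 1819.5 UMIs). The interval of 0.105 to 21.1% includes the PT-like share at 64 h, so the shares cannot be told apart. The part of free RNA in the PT-like share was not tested.

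The higher *Actb* at 64 h was seen in each class that could be compared. Its 64 h to uninjured ratio was 5.78 in PT-like, 3.83 in thick ascending limb (TAL)-like, 3.63 in distal convoluted tubule-like (1.19 to 11.1), 4.39 in intercalated-like (1.54 to 15.3) and 3.13 in endothelium-like nuclei (1.71 to 5.79). Clusters left without a cell type name are called by a gene among their 10 leading genes, which is not always the first. In these the ratio was 8.26 (*Fst*-led), 7.27 (*Slc8a1*-led), 6.55 (*Slc12a1*-led) and 3.54 (*Vcam1*-led), and no interval reached 1. The *Tmsb10* ratio was 15.01 in PT-like nuclei, 7.83 in the *Fst*-led cluster (3.502 to 21.7) and 8.23 in the *Slc8a1*-led cluster (1.57 to 81.2), and in endothelium-like nuclei it was 2.82 with an interval of 0.716 to 11.7. Intercalated-like nuclei had 5 *Tmsb10* UMIs at 64 h and 0 without injury, which makes the 64 h level at least 2.28-fold higher against a floor of 3 counts. *Havcr1*, an injury marker of the proximal tubule, had 0 UMIs at 64 h in distal convoluted tubule-like nuclei and in the *Slc8a1*-led cluster. It had 4 in intercalated-like nuclei and 7 in TAL-like nuclei. The TAL-like level was 33.2 CPM at 64 h, against 34.2 CPM in PT-like nuclei, and 2.52 CPM (1 UMI) without injury. The part of free RNA in these ratios was not tested.

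**Figure D3:**
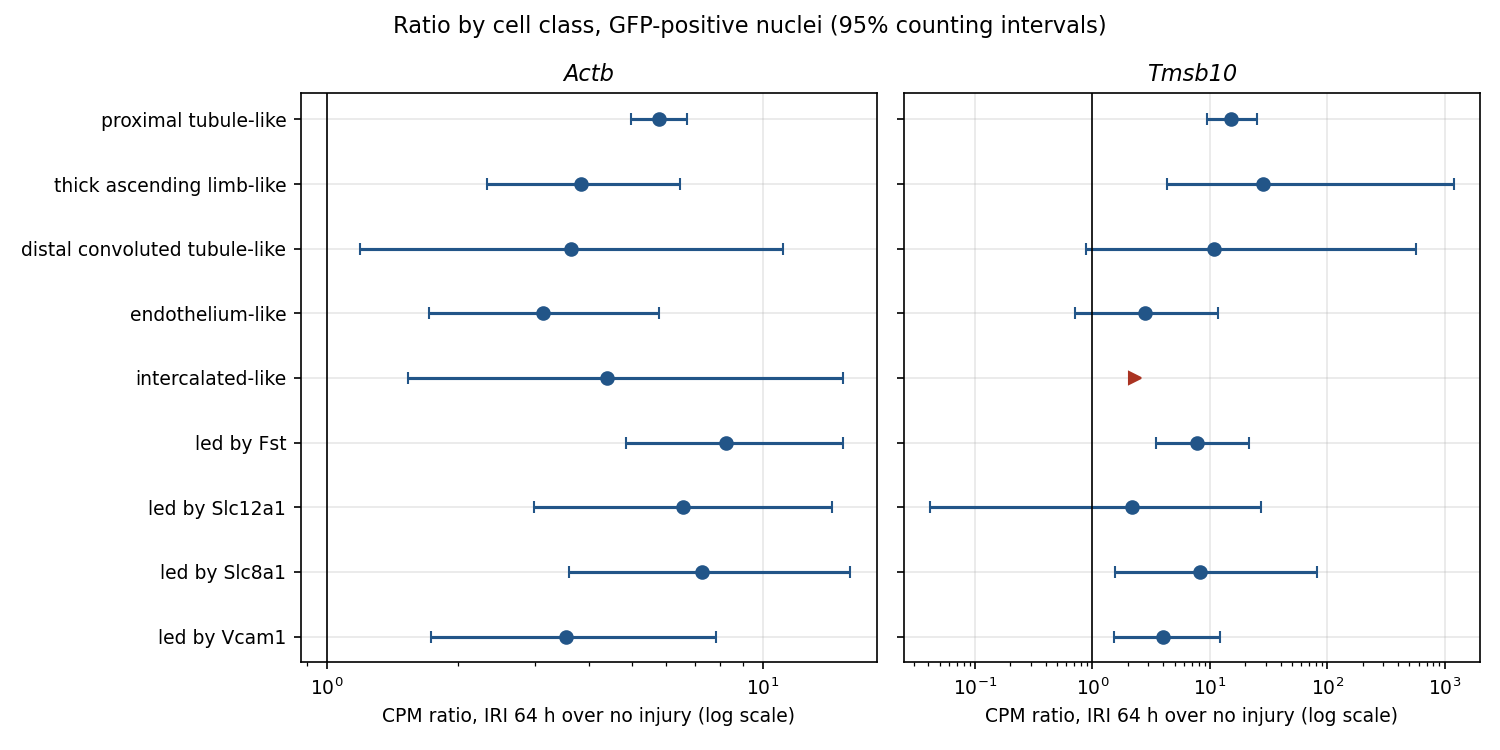
Ratio of CPM at 64 h after IRI to CPM without injury for *Actb* and *Tmsb10* in each class of at least 20 nuclei in both GFP-positive libraries, on a log axis with exact 95% counting intervals; a red arrow marks a lower bound where the uninjured class had 0 UMIs. Every *Actb* interval lies right of 1, and the *Tmsb10* intervals are wider and reach 1 in several classes.

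In TAL-like nuclei the actins and *Tmsb10* were higher at 64 h by more than counting error, *Krt7* passed the 1.5-fold rule only, and the other keratins were too sparse to compare. *Tmsb10* had 15 UMIs in 192 TAL-like nuclei at 64 h, against 1 UMI in 321 nuclei without injury (ratio 28.2, interval 4.34 to 1187). *Actb* had 51 UMIs, against 25 (3.83, 2.33 to 6.46), and *Actg1* 41, against 33 (2.34, 1.44 to 3.81). *Krt7*, which uninjured TAL-like nuclei already carried at 65.6 CPM (26 UMIs), was at 99.5 CPM (21 UMIs) at 64 h, 76.3 CPM (1 UMI) at 96 h and 86.8 CPM at 28 d. *Krt8* had 2 UMIs at 64 h, against 4 without injury, and *Krt18* had 3, against 5. *Tmsb4x* had 9 UMIs without injury, 0 at 64 h (ratio 0, upper limit 0.952) and 6 in 2 nuclei at 96 h (20.2, 5.91 to 63.5). By the 1.5-fold rule 4 of 7 measured members were higher at 64 h, where 25% of measured genes were. At 96 h it was 4 of 7 (29.2%) and at 28 d 2 of 7 (31.2%), the last near the background. *Tmsb10* (2.52 CPM without injury) was measured only through the injured libraries. The 4 members counted at 96 h had 1 to 6 UMIs each at that time. The 96 h value rests on 28 nuclei with 13104 UMIs and the 28 d value on 135 nuclei.

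Some nuclei fell into clusters with injury genes among their 10 leading genes, but none of these clusters had 3 such genes, the number set for calling a cluster injury-led. One cluster, led by *Fst* with *Havcr1* (kidney injury molecule 1) as the sixth gene and with parietal epithelium as its nearest marker list, had 124 nuclei in the uninjured library, then 253, 341 and 165 at 64 h, 96 h and 28 d. Its *Havcr1* was at 366 CPM at 64 h, 434 CPM at 96 h and 71.6 CPM at 28 d, against 34.2, 117 and 8.77 CPM in PT-like nuclei. Without injury its *Tmsb10* was already 7.29 times the PT-like level (2.40 to 18.8), on 6 UMIs, against 20 in PT-like nuclei. The intervals of the other members spanned 1 there. At 64 h the cluster's level of each of the 9 members was above that of PT-like nuclei by more than counting error. *Tmsb10* was at 237 CPM in the *Fst*-led cluster, against 62.2 CPM in PT-like nuclei (ratio 3.80, 3.01 to 4.79). *Krt18* was at 59.2 CPM, against 11.4 CPM (5.19, 3.10 to 8.67), and *Krt7* at 59.2 CPM, against 8.64 CPM (6.85, 3.95 to 12.0). *Vim*, the filament of mesenchymal cells, had 13 UMIs in this cluster, against 8 in PT-like nuclei (23.3 CPM against 2.77 CPM; 8.43, 3.24 to 23.5), and these 13 were among 26 in the whole library. *Krt8* differed by 3.34-fold, *Actb* by 2.06-fold, *Tmsb4x* by 2.01-fold (1.28 to 3.08) and *Actg1* by 1.73-fold. *Krt19* was at 12.6 CPM, against 2.42 CPM (5.19, 1.55 to 17.3).

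At 96 h the *Fst*-led cluster again exceeded PT-like nuclei, by more than counting error, in *Tmsb10*, both actins, *Krt7*, *Krt8* and *Krt18*, and at 28 d in *Tmsb10*, *Krt8* and *Actb*. At 96 h *Tmsb10* was at 341 CPM, against 123 CPM (2.77-fold), *Krt18* at 68.1 CPM, against 8.46 CPM (8.05, 3.64 to 18.7), and *Krt7* at 53.8 CPM, against 15.4 CPM (3.496-fold). The *Tmsb4x* ratio was 0.608 (0.117 to 2.01) and the *Actb* ratio 1.35 (1.13 to 1.61). At 28 d the ratios were 4.87 for *Tmsb10* (2.14 to 10.2), 3.90 for *Krt8* (1.55 to 8.64) and 1.87 for *Actb* (1.28 to 2.66), while *Krt18* and *Krt7* had 1 UMI each. This cluster also held markers of other epithelia: thin limb markers summed to 791 CPM at 64 h, 656 CPM at 96 h and 521 CPM at 28 d, parietal epithelium markers to 507, 420 and 1504 CPM, and urothelium markers to 21.5, 17.9 and 13.0 CPM. In PT-like nuclei the thin limb list summed to 92.4 CPM without injury, 180 CPM at 64 h, 104 CPM at 96 h and 45.5 CPM at 28 d. The part of such nuclei in the keratin levels was not tested.

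A further cluster, called *Vcam1*-led for the second of its leading genes, an adhesion gene of tubule cells that stay injured, was largest at 28 d with 272 nuclei. It held more *Havcr1* than the *Fst*-led cluster at 96 h (599 against 434 CPM), at 28 d (134 against 71.6 CPM) and without injury (157 against 25.2 CPM). The *Fst*-led values at 28 d and without injury rest on 11 and 5 UMIs. At 64 h the *Vcam1*-led cluster held less *Havcr1* than the *Fst*-led one (146 against 366 CPM, on 17 and 204 UMIs). At 28 d its *Tmsb10* was at 83.5 CPM, against 13.4 CPM in PT-like nuclei (6.25, 3.72 to 10.5), and its *Krt8* at 40.5 CPM, against 13.4 CPM (3.03, 1.55 to 5.68). *Actg1* was 1.87-fold higher (1.34 to 2.58), *Actb* had a ratio of 1.33 (0.997 to 1.745), *Krt7* of 0.865, and *Krt18* had 0 UMIs. The cluster was present without injury too (73 nuclei), where *Tmsb10* was already 9.86 times its PT-like level (3.24 to 25.5). The uninjured cluster's value rests on 6 UMIs, against 20 in PT-like nuclei. At 64 h (69 nuclei) the *Tmsb10* ratio was 2.62 (1.54 to 4.20), but *Actb* stood at 0.939 (0.634 to 1.34) and *Tmsb4x* at 0.929 (0.188 to 2.81), and *Vim*, *Krt7* and *Krt19* had 0 UMIs. At 96 h (61 nuclei) the *Tmsb10* ratio was 1.44 (0.612 to 2.91), an interval that spans 1.

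Inside the PT-like class itself, at an equal 600 UMIs per nucleus, the intervals for *Tmsb10* and the actins in nuclei with a *Havcr1* UMI against those without spanned 1 wherever both had UMIs. *Krt7* at 64 h had an interval above 1 (12.4, 1.32 to 58.2), on 2 UMIs in nuclei with *Havcr1*. At 96 h PT-like nuclei with a *Havcr1* UMI held 214 CPM of *Tmsb10*, against 103 CPM in those without one (2.08, 0.643 to 5.22; 39 and 729 nuclei). The *Actg1* ratio was 2.20 (0.771 to 5.12) and the *Actb* ratio 1.33 (0.672 to 2.38). At 64 h the *Tmsb10* ratio was 1.02 (0.0253 to 5.88; 29 and 1798 nuclei), and at 28 d there were 0 *Tmsb10* UMIs in 8 nuclei with *Havcr1*. Without thinning, where nuclei differ in depth, the *Tmsb10* ratio was 2.56 at 96 h (1.57 to 4.00; 130 and 2186 nuclei) and 1.82 at 64 h (1.07 to 2.93). Too few PT-like nuclei had a *Vcam1* UMI to compare (7 or fewer per library after injury, thinned). Between the actins, 22.6% of 137 PT-like nuclei with an *Actg1* UMI also had an *Actb* UMI at 64 h, against 15.1% of 1690 without. The shares were 26.4% of 53 against 20.6% of 715 at 96 h, and 12.2% of 74 against 6.86% of 1822 at 28 d. The intervals overlapped at each time. For the keratin pair, 0 of 12 nuclei with a *Krt18* UMI held *Krt8* at 64 h (0 to 26.5%), against 2.04% of 1815 without. For the thymosins, 0 of 22 nuclei with a *Tmsb4x* UMI held *Tmsb10* at 64 h (0 to 15.4%), against 3.10% of 1805 without. At 28 d it was 2 of 15 (13.3%, 1.66 to 40.5%), against 0.585% of 1881 (0.292 to 1.04%).

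**Figure D4:**
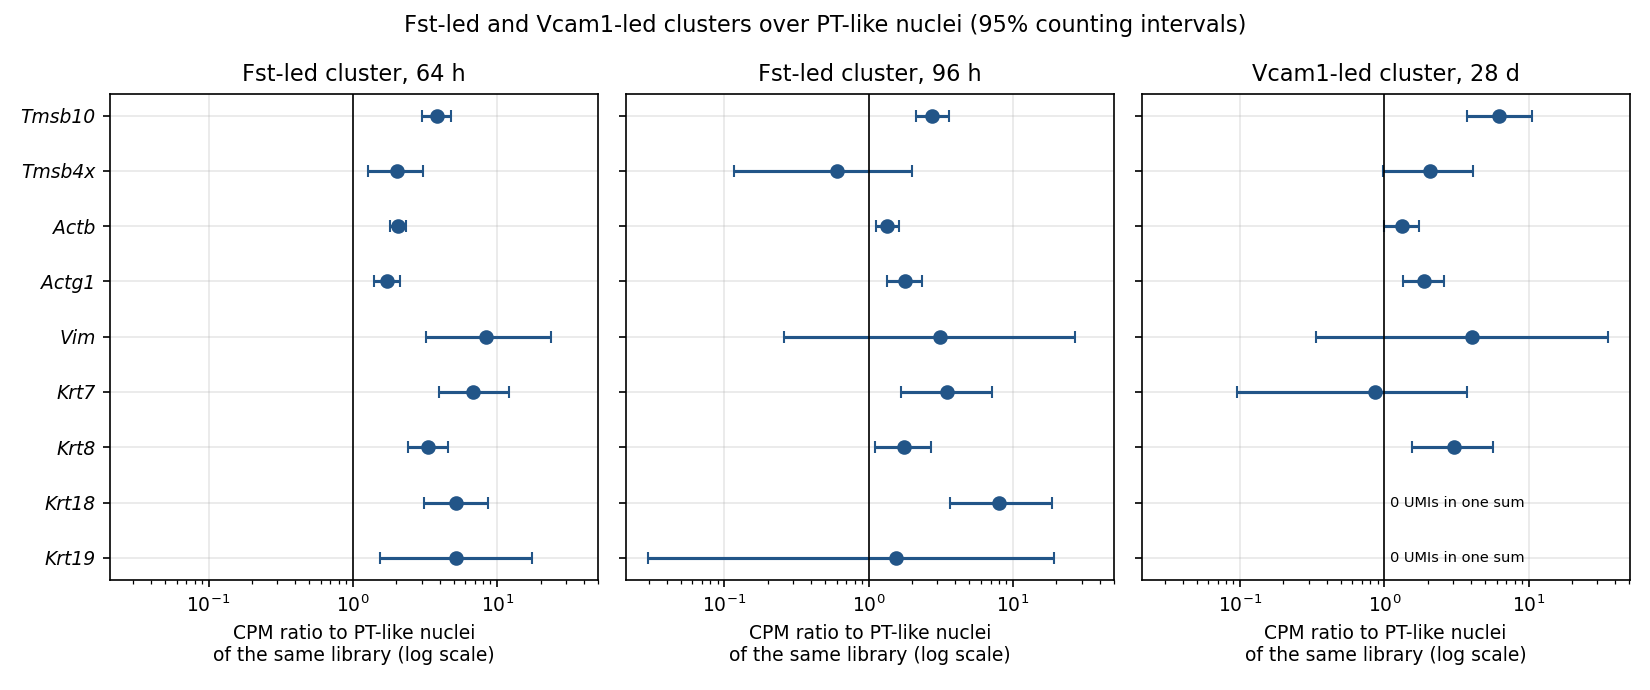
Ratio of CPM in the *Fst*-led cluster (64 h and 96 h) and the *Vcam1*-led cluster (28 d) to CPM in PT-like nuclei of the same library for each member, on a log axis with exact 95% counting intervals; text marks a sum of 0 UMIs. *Tmsb10* lies right of 1 in all 3 panels (3.80, 2.77 and 6.25), and *Krt18* in the first 2.

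Another cluster, called *Lcn2*-led for the second of its leading genes, the gene of the injury marker NGAL, was set beside TAL-like nuclei. At 64 h it had 69.6 CPM of *Krt8* in 287 nuclei, against 9.48 CPM in 192 TAL-like nuclei (7.35, 1.81 to 64.5). For the genes that were higher at 64 h in TAL-like nuclei the intervals spanned 1, with ratios of 1.25 for *Tmsb10* (0.644 to 2.51), 1.18 for *Actb* (0.827 to 1.696) and 1.06 for *Actg1* (0.705 to 1.61). Its *Krt7* was at 136 CPM at 64 h, against 99.5 CPM in TAL-like nuclei (1.37, 0.794 to 2.43), and at 283 CPM at 96 h and 109 CPM at 28 d. At 96 h this cluster of 378 nuclei held 49 of the 97 *Krt7* UMIs of the library, and 9.33% of all UMIs.

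Over all GFP-positive nuclei, cell makeup and level per nucleus cannot be told apart. Of the measured members 6 of 7 were higher at 64 h (21.3% of measured genes), 6 of 7 at 96 h (35.1%) and 3 of 7 at 28 d (11.6%). With no filter 7 of 9, 6 of 9 and 4 of 9 members were higher, against 18.9%, 33.1% and 13.5% of all genes with a UMI. The 28 d count includes *Vim*, with 18 UMIs in each library and an interval that spans 1 (1.90, 0.932 to 3.87). *Tmsb10* had 8.53 CPM in the uninjured library, 91.8 CPM at 64 h, 162 CPM at 96 h and 26.3 CPM at 28 d. *Krt18* ran differently from *Krt8* here: it was at 7.83, 24.0, 24.8 and 2.65 CPM, against 10.9, 51.6, 73.3 and 18.6 CPM for *Krt8*. Of the 56 uninjured *Krt18* UMIs, 26 came from 191 thin limb-like nuclei, and of the 35 uninjured *Krt19* UMIs, 16 came from 12 urothelium-like nuclei.

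Without injury, GFP-positive nuclei held less of every member than GFP-negative nuclei, which include endothelium, stroma, immune cells, collecting duct and urothelium. None of the 9 was at least 1.5-fold higher in GFP-positive nuclei, where 10.4% of measured genes were. All 9 were at least 1.5-fold lower, against 32.0% of measured genes. *Vim* (2.52 CPM in GFP-positive nuclei) and *Krt19* (4.89 CPM) were measured only through the GFP-negative library. The count of 9 thus includes members let in by the level being compared. With TMM scaling, which moves all log2 folds here by 0.38, *Actg1* (-0.24) and *Krt8* (-0.52) were no longer 1.5-fold lower, and the other 7 were. *Tmsb4x* was at 42.8 CPM in GFP-positive and 213.5 CPM in GFP-negative nuclei (ratio 0.200), *Vim* at 2.52 and 12.5 CPM (0.202), and *Tmsb10* at 8.53 and 38.2 CPM (0.223). *Actg1* differed least, at 64.3 CPM in GFP-positive and 99.1 CPM in GFP-negative nuclei (0.649). Part of the gap was present inside a class: PT-like nuclei had 48.9 CPM of *Actb* (42.9 to 55.6) in the GFP-positive and 80.0 CPM (62.3 to 101) in the GFP-negative library, and for *Tmsb4x* 26.3 CPM (21.9 to 31.3) and 48.7 CPM (35.1 to 65.9). For *Actg1* in PT-like nuclei the values were 54.3 and 51.0 CPM, with overlapping intervals.

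The uninjured GFP-negative library also shows where each member is carried. *Krt19* belonged to the urothelium-like nuclei: 36 nuclei held 50 of the library's 71 UMIs, at 923 CPM. The same nuclei had 775 CPM of *Krt7*, 424 CPM of *Krt18* and 184.5 CPM of *Krt8*, the highest level of each of these keratins in this library. *Tmsb4x* was at 1310 CPM in urothelium-like, 1107 CPM in macrophage and dendritic-like, 475 CPM in collecting duct principal-like and 434 CPM in podocyte-like nuclei, and the intervals of the first 2 overlap. Collecting duct principal-like nuclei alone gave 290 of its 821 UMIs. *Actb* was at 816 CPM in macrophage and dendritic-like, 733 CPM in fibroblast and mural-like, 325 CPM in endothelium-like and 104.7 CPM in TAL-like nuclei. *Krt7* ran along the distal nephron, at 111 CPM in TAL-like, 121 CPM in distal convoluted tubule-like, 115 CPM in intercalated-like and 126 CPM in collecting duct principal-like nuclei, against 16.2 CPM in PT-like nuclei. *Vim* was at 31.1 CPM in endothelium-like nuclei (14 UMIs), 39.8 CPM in a *Lama2*-led cluster and 109 CPM in podocyte-like nuclei (4 UMIs). *Tmsb10* was at 203 CPM in urothelium-like, 124 CPM in *Lama2*-led, 86.7 CPM in endothelium-like and 18.0 CPM in TAL-like nuclei.

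**Figure D5:**
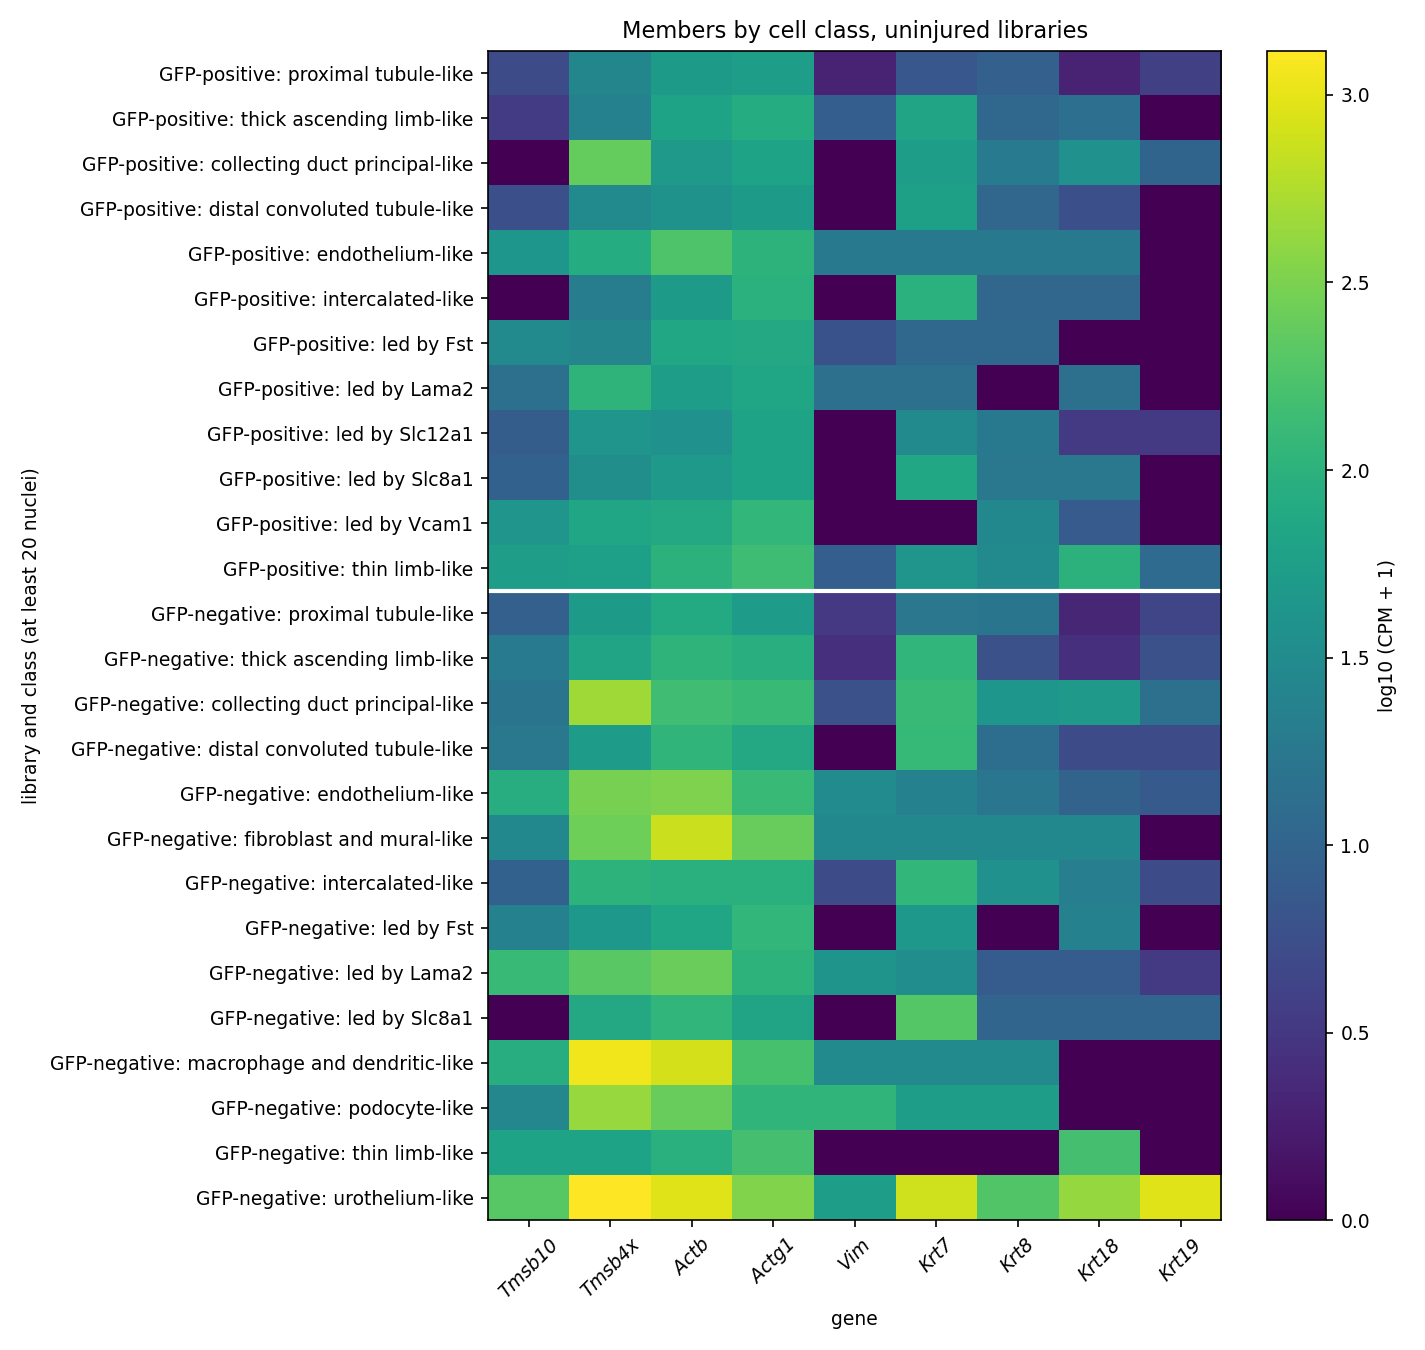
Level of each member as log10 of CPM + 1 (colour) in every class of at least 20 nuclei of the uninjured GFP-positive library (upper block) and GFP-negative library (lower block). Keratins are brightest in the urothelium-like row of the GFP-negative library, where *Krt19* reaches 923 CPM, and *Tmsb4x* is bright in the urothelium-like and macrophage and dendritic-like rows.

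Beside the higher keratins in PT-like nuclei, urothelium markers summed to 7.25 CPM without injury (5 of 7 detected), 6.57 CPM at 64 h (5 of 7), 4.62 CPM at 96 h (3 of 7) and 0.835 CPM at 28 d (1 of 7). Cytosolic transcripts were higher at 64 h and 96 h: the ribosomal protein list summed to 1063 CPM in the uninjured library, 2542 CPM at 64 h, 2638 CPM at 96 h and 905 CPM at 28 d. Of its measured genes, 15 of 16 were higher at 64 h, 17 of 17 at 96 h and 3 of 17 at 28 d. Other abundant cytoplasmic transcripts were higher in 5 of 8 cases at 64 h, 7 of 8 at 96 h and 0 of 8 at 28 d. Their part in the member ratios was not tested.

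Other genes of the actin system were counted in PT-like nuclei by the same rule, against backgrounds of 22.5% at 64 h, 37.5% at 96 h and 12.3% at 28 d. Among actin turnover genes 17 of 24 measured were higher at 64 h, 10 of 24 at 96 h and 3 of 24 at 28 d, with 2 lower at 96 h; they include profilin *Pfn1* (2.43, 4.44 and 1.44 times the uninjured level) and cofilin *Cfl1* (2.88, 4.63 and 1.78 times). Among actomyosin genes 12 of 17 were higher at 64 h, 10 of 17 at 96 h and 1 of 15 at 28 d, and *Tagln2* reached 5.57 times at 96 h. Linkers of actin to the membrane, with annexins and S100 proteins, were higher in 8 of 10 cases at 64 h, 7 of 10 at 96 h and 0 of 9 at 28 d, led by *Anxa2* (4.68, 13.5 and 1.17 times). Of brush border genes 2 of 8 were higher at 64 h, 3 of 8 at 96 h and 0 of 8 at 28 d, and the bundling gene *Vil1* was at 1.06, 1.74 and 1.30 times. Genes of the serum response factor pathway were higher in 1 of 6, 6 of 8 and 3 of 6 cases, with *Ankrd1* at 4.45, 12.4 and 5.04 times. The uninjured sums are the same at each time, so the 8 measured at 96 h include genes let in by their 96 h level. Other lists also differed between times in the number measured. Tubulins were higher in 5 of 7, 6 of 7 and 1 of 5 cases. The turnover genes at 96 h and 28 d and the actomyosin genes at 28 d were thus near the background share. So were the brush border genes at 64 h and 96 h and the serum response factor genes at 64 h. No other thymosin on the list reached the level of a measured gene.

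The keratin with the highest ratios outside the members was *Krt20*, which injured tubules are known to switch on. It had 1.66 CPM in the uninjured library, 38.4 CPM at 64 h, 44.6 CPM at 96 h and 1.25 CPM at 28 d in PT-like nuclei, 23.1, 26.9 and 0.755 times the uninjured level. *Krt10*, a keratin of stratified epithelium, was lower, at 0.248, 0.158 and 0.343 times. Unlike *Krt20*, *Tmsb10* was still 3.22 times its uninjured level at 28 d. The linker plectin, *Plec*, was at 2.34, 5.01 and 1.66 times.

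Across 55 sums of a class in a library, each of at least 20 nuclei, the genes whose levels ran most like each member were listed by Pearson correlation of log2(CPM + 10), out of 9840 genes. Sums of 1 library share its depth and free RNA, so these values describe the data and carry no p. *Tmsb10* ran with *S100a10* (0.76), *Actb* (0.75) and *9330111N05Rik* (0.70), and *Actb* with *Rpl41* (0.75). *Krt18* ran with the tight junction gene *Cldn4* (0.78), *Krt7* with the transcription factor gene *Prdm16* (0.78), and *Vim* with *Colec12* (0.77). *Tmsb4x* ran with *Man1c1* (0.74) and *Krt8* with *Nlrp4e* (0.68). Among the members, *Actb* and *Actg1* correlated at 0.64, *Krt8* and *Krt18* at 0.57, and *Tmsb10* and *Tmsb4x* at 0.094, the thymosins being the paralogs least alike of these pairs.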

How the data were processed

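The authors deposited UMI counts per gene and barcode for 5 libraries, unnormalized; per the submitters' processing notes, bcl2fastq 2.17, STAR 2.5.1b, Cell Ranger 2.1 and mm10 were used. Per the labels' protocols, reads were counted on a pre-mRNA reference. Barcodes under 200 genes or over 10% mitochondrial UMIs were dropped and the rest scaled to 10000, and clustered (scanpy 1.11.5, Leiden, resolution 1.0, 30 components, 15 neighbours, 2000 variable genes without the members or keratins). Clusters took an "-like" name from at least 3 detected markers; limits that left some unnamed, including a rule against naming deep clusters of mixed markers, were set after the data were seen, and no cluster had the 3 injury genes among its leading genes set for an injury-led one. No doublet caller was run; leaving out the deepest 5% of barcodes was an alternative. UMIs were summed per class and library, with no test, since each group is 1 library. Ratios have exact conditional intervals, levels exact Poisson intervals, and shares Clopper-Pearson intervals, all at 95% and all for counting error only. Counts of members use (CPM + 1) ratios of at least 1.5; printed ratios are of CPM with no pseudocount.

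Members and lists were chosen with earlier results of these data known. Named list genes were taken from the up to 4 of each list with at least 20 UMIs and the largest absolute log2 fold at 96 h, and the likest genes are the 3 with the highest correlation per member; a subset of both is named, and the PT-like clusters named were singled out by size after their values were seen. Of the gene symbols, 56 stand for more than 1 gene, none a member. Interval and threshold code was tested on simulated data. TMM factors came from edgeR 4.0.16 (R 4.3.3); intervals came from scipy 1.17.1 (Python 3.11.15) and figures from matplotlib 3.10.9. The level in 1 further PT-like cluster is not reported here.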

Additional observations from a re-analysis of the deposited data

How the results depend on the processing

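No paired analysis was possible because each group is 1 library and nothing was tested. Counts of members at least 1.5-fold higher in PT-like nuclei stayed within 1.5 times at 64 h and 96 h under every alternative run; at 28 d the count of 4 became 2 with TMM scaling and 2 with a pseudocount of 10 CPM, and over all GFP-positive nuclei at 28 d it became 2 with that pseudocount and 2 with nuclei thinned to 600 UMIs. Counts in TAL-like nuclei were unstable. At 64 h the count of 4 became 7 at resolution 0.5, 7 with the members kept for clustering and 7 with the *Lcn2*-led cluster added. At 96 h it became 2 with stricter barcode filters, 2 with thinning, 7 with the members kept and 7 with the *Lcn2*-led cluster. At 28 d the count of 2 became 1 with TMM, with a pseudocount of 10 CPM, without the deepest barcodes, without *Malat1* and at resolution 2.0, 4 at resolution 0.5, and 6 with the members kept or the *Lcn2*-led cluster added. The additions of clusters and the removal of *Malat1* were chosen after seeing the data. TMM moved log2 folds in PT-like nuclei by -0.21 at 64 h, -0.40 at 96 h and -0.12 at 28 d, and those of GFP-positive over GFP-negative nuclei by 0.38.

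Of the single-member values under alternatives, 702 stayed, 62 moved and 19 that had passed 1.5-fold changed sign; the cause was not tested. In PT-like nuclei this was *Krt18* at 28 d alone, with a log2 fold of -0.77 after thinning. *Tmsb4x* at 64 h, near 0 and not past 1.5-fold, ranged from -0.72 (thinned) to 0.43 (resolution 0.5) and was -0.13 with TMM. In TAL-like nuclei *Tmsb4x* at 64 h became 0.18 with the members kept and 0.10 with the *Lcn2*-led cluster. At 96 h *Actg1* became -0.12 with TMM. With stricter filters *Tmsb10* became -1.81, *Tmsb4x* -4.56 and *Actg1* -6.38, and with thinning *Tmsb4x* became -2.63 and *Actb* -6.10, values that rest on sums at or near 0. *Krt8* at 96 h became 2.55 at resolution 0.5, 2.58 with the members kept and 2.59 with the *Lcn2*-led cluster, and *Krt18* became 2.36, 1.53 and 1.53. *Krt8* at 28 d became 0.25 with stricter filters, 0.48 at resolution 0.5, 1.36 with the members kept and 1.29 with the *Lcn2*-led cluster. Depth limits *Vim*, *Krt18* and *Krt19* most, which had 1 to 33 UMIs in PT-like nuclei of a library.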
